A study of Mus musculus with 12 samples.

Results

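The genes described here carry pyruvate into the mitochondrion, turn the citric acid cycle and run the malate-aspartate shuttle. They are a list of 35 genes set by name, from what their proteins do; the list was drawn up with earlier results of these arrays known. Of these, 33 had a named probe set on the array and all 33 were tested, out of 19505 genes named and 13653 tested. Mpc2, which encodes the second subunit of the pyruvate carrier, and Glud1, which encodes glutamate dehydrogenase, had no named probe set in the annotation used and are not analysed here.

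Expression was measured in mouse myocardium on 12 single-colour Affymetrix arrays, 4 in each of 3 groups, and the design treats each array as 1 mouse. NC mice were negative controls that received vehicle into the peritoneum on 5 days. DM mice received streptozotocin, a toxin of the insulin-producing beta cells, on 5 days by the same route, and were taken on when their fasting glucose was at least 16.7 mM. AngIV mice were made diabetic in the same way and then infused with angiotensin IV, a short peptide derived from angiotensin II, from week 8 until week 24, at a dose of 2.88 mg/kg/day. Tissue is labelled 6 months for all 3 groups, no transgene or deletion is named, and the labels used here do not name strain or sex. No group of healthy mice with angiotensin IV was analysed here, so an effect of the peptide outside diabetes cannot be read from these arrays. Values are log2 signals per probe set, and a log2 change is a difference of group means of these signals.

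The heart burns fatty acids, glucose, lactate and ketone bodies, and their carbon meets in the citric acid cycle. Pyruvate crosses the inner mitochondrial membrane through the mitochondrial pyruvate carrier and is turned into acetyl-CoA by the pyruvate dehydrogenase complex, which is switched off by phosphorylation and on again by its phosphatases. The cycle oxidises acetyl-CoA and hands electrons to the respiratory chain, while the malate-aspartate shuttle brings the reducing power of cytosolic NADH into the matrix. Much of the control of these steps in heart muscle acts on the enzymes themselves, through phosphorylation, calcium and metabolites, which mRNA levels do not record.

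The labelled tissue was checked against marker genes. The mean log2 signal of 7 cardiomyocyte markers was 11.3 to 11.5 on the NC arrays, 11.3 to 11.4 on the DM arrays and 11.4 on the AngIV arrays. Markers of the atria were uneven: the mean of 5 of them was 5.11 to 8.58 in NC, 4.55 to 8.11 in DM and 4.96 to 5.36 in AngIV. The atrial myosin light chain gene Myl7 exceeded background on 5 of 12 arrays (NC replicates 1 and 3 and DM replicates 1, 2 and 4). Background is here the 95th percentile of the array's negative controls. Bmp10, another atrial gene, exceeded it on none. Myl4 and Sln, also on the list, were highest on the same 5 arrays as Myl7. Nppa differed: it exceeded background on every AngIV array (7.33, 8.98, 8.77 and 9.65) and was lowest on DM replicate 3 (5.12). The mean of the 5 markers, used below as a covariate, therefore does not follow Myl7 alone. In bulk tissue, fewer cells of a type and less RNA per cell cannot be told apart. All 5 measured adipocyte markers (Adipoq, Plin1, Cidec, Lep and Ucp1) lay below background on every array. No marker of the 9 cell types listed was called in any comparison.

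Of the 33 genes, 32 were among the brighter 50% of the genes named. Me2, below background on all 12 arrays, and Pcx, below it on 11, were dim. The mean level of the 33 genes on an array differed little between groups. Their mean log2 signal was 8.63, 8.74, 8.85 and 8.86 on NC replicates 1 to 4, 8.69, 8.66, 8.77 and 8.69 on the DM arrays and 8.81, 8.81, 8.74 and 8.76 on the AngIV arrays. All 3 groups overlapped, with means of 8.77 ± 0.11 (NC), 8.70 ± 0.05 (DM) and 8.78 ± 0.03 (AngIV; SD, n = 4 each). NC replicate 1 was the lowest array of all 12. It held the lowest value of all 12 arrays for 11 of the 33 genes, namely Pdha1, Pdhb, Dlat, Pdp1, Cs, Idh2, Suclg1, Suclg2, Mdh2, Got2 and Slc25a12. The same array had the highest atrial marker mean, 8.58, a cardiomyocyte marker mean of 11.32, the lowest in NC, and log2 signals of 9.99 for Acta2 and 8.62 for Tagln, which encode smooth muscle proteins. The part of tissue composition in the members' values was not tested beyond the alternative fits named with the results.

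**Figure D1:**
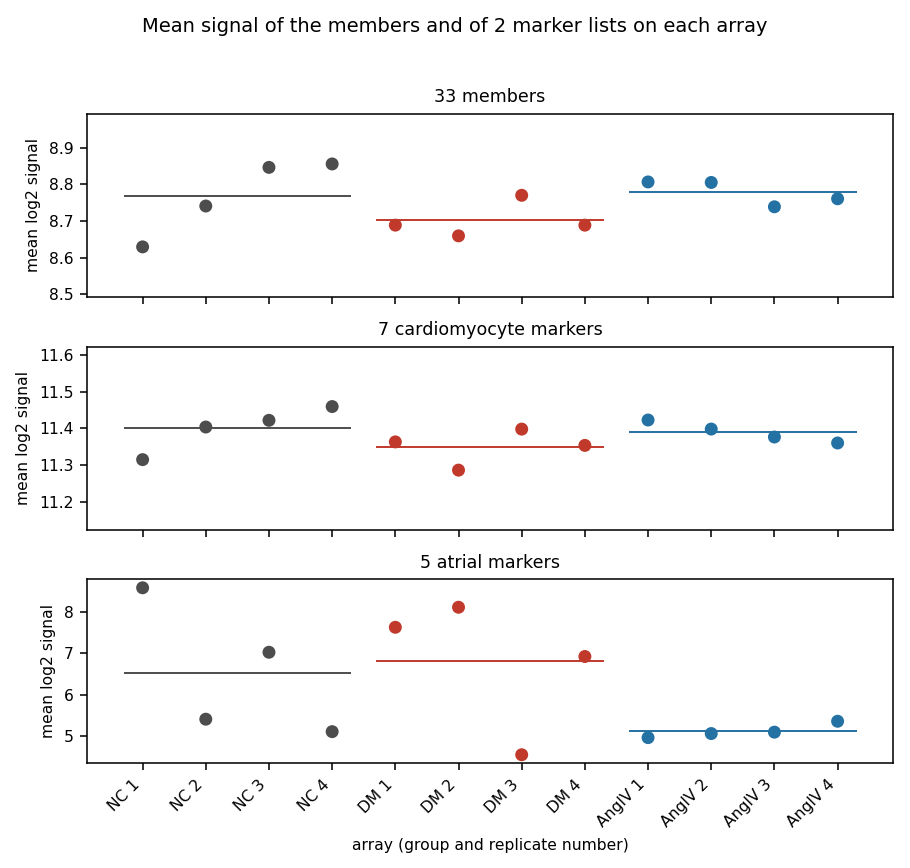
Each point is the mean log2 signal on 1 array, by group (NC, DM, AngIV), for the pyruvate, citric acid cycle and shuttle genes and for marker lists of cardiomyocytes and atria; lines are group means. The means of the 33 genes lie between 8.63 and 8.86 on all 12 arrays and the groups overlap, while the atrial markers spread from 4.55 to 8.58 in NC and DM and stay between 4.96 and 5.36 in AngIV.

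Across the 3 comparisons no member was called by limma at an adjusted p under 0.05. In DM against NC, 0.0220% of all genes tested were called (3 genes) and 0 members. The share was 0% of all genes, and 0 members, in AngIV against DM. It was 2.15% of all genes (293 genes), and 0 members, in AngIV against NC. The smallest limma adjusted p among the members was 0.338, 0.409 and 0.158 in these comparisons in turn.

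The members' median log2 change was -0.06 in DM against NC, 0.04 in AngIV against DM and 0.01 in AngIV against NC. The same median over all 13653 genes was 0.00, 0.01 and 0.00 after rounding. These medians are small and moved with single arrays: the first was -0.10 without NC replicate 1 and -0.02 without NC replicate 4, and the second 0.08 without DM replicate 3. With the atrial marker mean as a covariate, the second was -0.0015 and the third -0.06. Of the 33 members, 9 had a positive log2 change in DM against NC, 26 in AngIV against DM and 17 in AngIV against NC. Among all genes these shares were 49.6%, 52.9% and 50.6%. The 9 of DM against NC became 14 without NC replicate 3 and 14 without NC replicate 4. The 26 of AngIV against DM became 27 with arrays centred on their medians, 20 with quantile normalization repeated over transcript probe sets, and 16 with the atrial marker mean as a covariate, and 17 without the 5 arrays with Myl7 above background. The 17 of AngIV against NC became 12 without NC replicate 1 and 21 without NC replicate 4. The first and second comparisons share the DM arrays, so a high or low DM value enters both with opposite sign.

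The members were measured with a median standard error of 0.10 (log2), against 0.13 for all genes. The whole 95% confidence interval of the difference lay within 1.5-fold in either direction for 31 of 33 members in DM against NC (93.9%, against 86.5% of all genes). It did so for 32 of 33 in AngIV against DM (97.0%, against 87.8%) and for 31 of 33 in AngIV against NC (93.9%, against 81.1%). The exceptions were Got1 and Pcx in the first comparison, Pcx in the second, and Got1 and Slc25a1 in the third. These counts include Me2, which was below background on all 12 arrays. Without Me2 they were 30, 31 and 30 of 32 in turn. The third count also includes Pcx, below background on 11 of 12 arrays. For these 2 genes an interval within 1.5-fold bounds no fold in RNA. RMA summaries compress differences, so these bounds hold for the signals on the array.

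**Figure D2:**
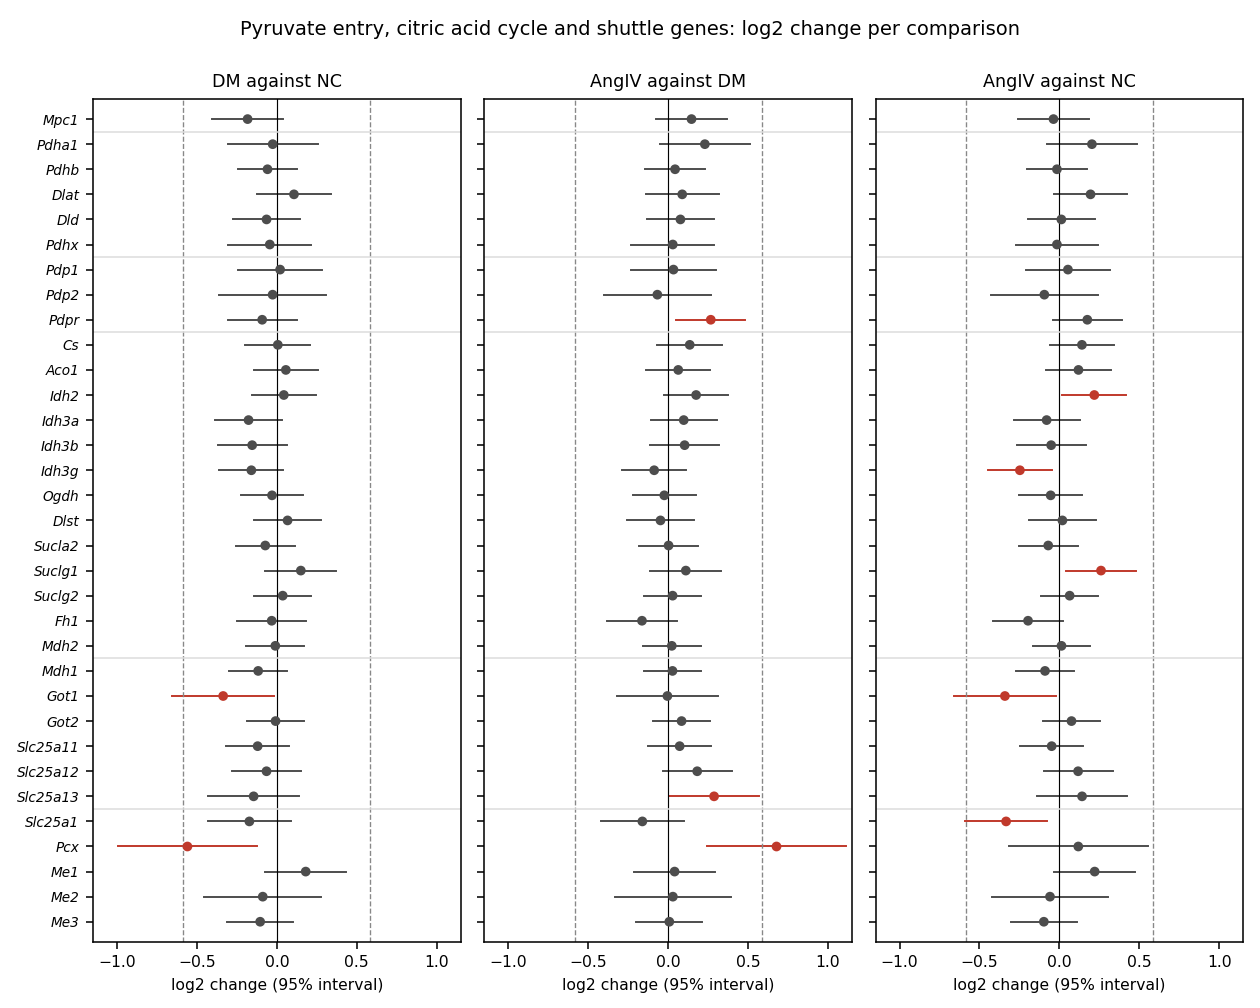
Log2 change of each of the 33 genes, in order of role, in 3 panels for the comparisons DM against NC, AngIV against DM, then AngIV against NC; points are limma estimates and bars their 95% confidence intervals. Most intervals cross 0, and the widest belong to Pcx, whose signals lie near background.

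Before adjustment, few members stood out, and their share lay above that of all genes in some directions and below it in others. At an unadjusted limma p under 0.05 in DM against NC, 5.62% of all genes were higher and 5.08% were lower, against 0 members higher and 2 lower (Got1 and Pcx, 6.06% of the members). The background in AngIV against DM was 5.27% higher and 3.51% lower, against 3 members higher (Pcx, Pdpr and Slc25a13, 9.09%) and 0 lower. In AngIV against NC it was 10.9% higher and 7.74% lower, against 2 members higher (Idh2 and Suclg1, 6.06%) and 3 lower (Got1, Idh3g and Slc25a1, 9.09%).

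Groups of 4 arrays that did not overlap at all were counted in the same way. Every DM array lay above every NC array for 2.84% of all genes and below for 2.45%, against 0 members and 1 member (Idh3g). For AngIV against DM it was 3.57% above and 2.19% below, against 4 members (Got2, Pcx, Pdpr and Slc25a12, 12.1%) and 0. In AngIV against NC it was 7.59% above and 5.17% below, against 3 members (Got2, Idh2 and Suclg1, 9.09%) and 2 (Fh1 and Idh3g, 6.06%).

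At the entry of pyruvate, Mpc1 encodes the measured subunit of the mitochondrial pyruvate carrier. Its log2 signal was 11.06, 10.99, 11.09 and 11.28 on the NC arrays, 10.77, 10.79, 11.09 and 11.03 on the DM arrays, and 11.04, 11.10, 10.99 and 11.14 on the AngIV arrays. DM replicates 1 and 2 were the lowest of the 12 and the groups overlapped. The log2 change was -0.18 ± 0.10 (SE) in DM against NC, 0.15 ± 0.10 in AngIV against DM and -0.04 ± 0.10 in AngIV against NC, and the limma adjusted p was 0.561, 0.694 and 0.892 in turn.

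The genes of the pyruvate dehydrogenase complex differed little between the 3 groups. Its E1 subunits are encoded by Pdha1 and Pdhb, the acetyl transferase E2 by Dlat, the dihydrolipoyl dehydrogenase E3 by Dld and the E3-binding protein by Pdhx. None of the 5 passed the limma test in any comparison, and their median log2 change was -0.04 for DM against NC, 0.08 for AngIV against DM and 0.01 for AngIV against NC. Pdha1, which carries the regulatory phosphorylation sites, had the widest spread of them in NC, from 8.84 to 9.40. It stood at 8.97 to 9.41 in DM and 9.31 to 9.56 in AngIV, a log2 change of 0.23 ± 0.13 (SE) against DM (limma adjusted p = 0.624). Pdhb had the narrowest spread of the 5 in DM and AngIV, with mean log2 signals of 10.19 ± 0.12 (NC), 10.13 ± 0.03 (DM) and 10.17 ± 0.04 (AngIV; SD, n = 4 each). The log2 changes of Dlat in the same order of comparisons were 0.11, 0.09 and 0.19, those of Dld -0.06, 0.08 and 0.01, and those of Pdhx -0.04, 0.03 and -0.02. All 5 had a positive log2 change in AngIV against DM, which became 4 of 5 with quantile normalization repeated and 3 of 5 with the atrial marker mean as a covariate.

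Of the 3 genes of the phosphatases that switch the complex on, only Pdpr, which encodes the regulatory subunit, had an unadjusted limma p under 0.05. The arrays gave Pdpr a log2 signal of 6.91, 7.22, 7.02 and 7.21 on the NC arrays, 7.09, 7.11, 6.86 and 6.94 on the DM arrays and 7.27, 7.31, 7.17 and 7.32 on the AngIV arrays. Every AngIV array lay above every DM array, while NC replicates 2 and 4 reached into the AngIV range. The log2 change in AngIV against DM was 0.27 ± 0.10 (SE; 95% interval 0.05 to 0.48), with a limma unadjusted p of 0.019 and an adjusted p of 0.505. It was 0.25 with the atrial marker mean as a covariate (limma unadjusted p = 0.063) and 0.22 without DM replicate 3 (limma unadjusted p = 0.0643). Over all alternatives run it was 0.22 to 0.41. The catalytic subunits Pdp1 and Pdp2 had log2 changes of 0.03 and -0.07 in the same comparison. Pdp2 was the more variable on the AngIV arrays, from 5.66 to 6.47.

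The 13 measured genes of cycle enzymes lay on both sides of 0, and none passed the limma test. A positive log2 change was seen for 6 and a negative one for 7 in DM against NC, for 9 and 4 in AngIV against DM, and for 7 and 6 in AngIV against NC. Their median log2 change was -0.01, 0.03 and 0.01. Cs encodes citrate synthase, whose enzyme activity, which was not measured here, is widely used as a measure of mitochondrial content. The mRNA signals of Cs had means of 10.29 ± 0.13 (NC), 10.29 ± 0.08 (DM) and 10.43 ± 0.07 (AngIV; log2, SD, n = 4 each). Its log2 change was 0.01 ± 0.09 (SE) in DM against NC (limma adjusted p = 0.993). Mdh2, the matrix malate dehydrogenase gene, and Sucla2, a subunit gene of the ATP-forming succinyl-CoA ligase, varied least of all members: their 12 arrays lay within 0.18 on the log2 scale, or 1.13-fold.

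The 3 subunit genes of the NAD-dependent isocitrate dehydrogenase, Idh3a, Idh3b and Idh3g, all had lower means in DM than in NC. This enzyme performs the first oxidation of the cycle and its gamma subunit, encoded by Idh3g, is regulatory. The log2 change in DM against NC was -0.18 ± 0.10 (SE) for Idh3a, -0.15 ± 0.10 for Idh3b and -0.16 ± 0.09 for Idh3g; the limma adjusted p was 0.551, 0.631 and 0.58. The mean over the AngIV arrays was 0.10 above DM for Idh3a and Idh3b and 0.09 below DM for Idh3g.

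Idh3g had a log2 signal of 10.71, 10.87, 10.79 and 10.71 on the NC arrays, 10.45, 10.60, 10.70 and 10.68 on the DM arrays and 10.40, 10.58, 10.50 and 10.61 on the AngIV arrays. All NC arrays lay above all DM and all AngIV arrays, though the highest DM array was close to the lowest NC array, and DM and AngIV overlapped. In AngIV against NC its log2 change was -0.25 ± 0.09 (SE; 95% interval -0.45 to -0.05), with a limma unadjusted p of 0.0188 and an adjusted p of 0.173. Over the alternatives run, its log2 change ranged from -0.29 to -0.21 and the limma adjusted p from 0.0492, with an intensity trend and a robust prior in the fit, to 0.321.

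The gene of the NADP-dependent enzyme of the mitochondrion, Idh2, differed in the other direction. Its log2 signal was 11.00, 11.06, 11.21 and 11.24 on the NC arrays, 11.34, 11.11, 11.13 and 11.10 on the DM arrays and 11.38, 11.37, 11.27 and 11.36 on the AngIV arrays. All 4 AngIV arrays lay above all NC arrays, and DM replicate 1 lay with the AngIV arrays. In AngIV against NC the log2 change was 0.22 ± 0.09 (SE; 95% interval 0.02 to 0.42), with a limma unadjusted p of 0.0347 and an adjusted p of 0.228. Without NC replicate 1 the log2 change was 0.18 and the unadjusted p 0.0962. Over the alternatives run, the log2 change of Idh2 was 0.18 to 0.25, with a limma unadjusted p under 0.05 in 11 of 19. The fit with the atrial marker mean as a covariate did not reach such a p.

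Suclg1, which encodes the subunit that both succinyl-CoA ligases share, followed a like order of groups. The log2 signal of Suclg1 was 9.76, 9.89, 10.10 and 9.98 on the NC arrays, 10.29, 10.04, 10.03 and 9.97 on the DM arrays and 10.18, 10.31, 10.13 and 10.15 on the AngIV arrays. Every AngIV array lay above every NC array, and DM overlapped both. The log2 change in AngIV against NC was 0.26 ± 0.10 (SE; 95% interval 0.04 to 0.48), with a limma unadjusted p of 0.0244 and an adjusted p of 0.197. Without NC replicate 1 it was 0.20 with an unadjusted p of 0.0803. Over the alternatives run, the log2 change of Suclg1 was 0.20 to 0.32, with a limma unadjusted p under 0.05 in 14 of 19. With the atrial marker mean as a covariate the p was not under 0.05. Sucla2 and Suclg2, the partner subunits of Suclg1, had log2 changes of -0.07 and 0.06 in the same comparison.

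Fh1, which encodes fumarase, had a log2 signal of 9.89, 9.90, 9.85 and 9.73 on the NC arrays, 9.56, 9.77, 9.92 and 9.98 on the DM arrays and 9.64, 9.69, 9.63 and 9.62 on the AngIV arrays. The AngIV arrays lay below every NC array and close together, while the DM arrays spanned both. Between AngIV and NC its log2 change was -0.20 ± 0.10 (SE), with a limma unadjusted p of 0.0728 and an adjusted p of 0.319. The other cycle genes had small differences: in the 3 comparisons in turn the log2 changes were 0.06, 0.06 and 0.12 for Aco1, which encodes the cytosolic aconitase, -0.03, -0.02 and -0.05 for Ogdh and 0.07, -0.05 and 0.02 for Dlst, both encoding parts of the 2-oxoglutarate dehydrogenase complex.

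**Figure D3:**
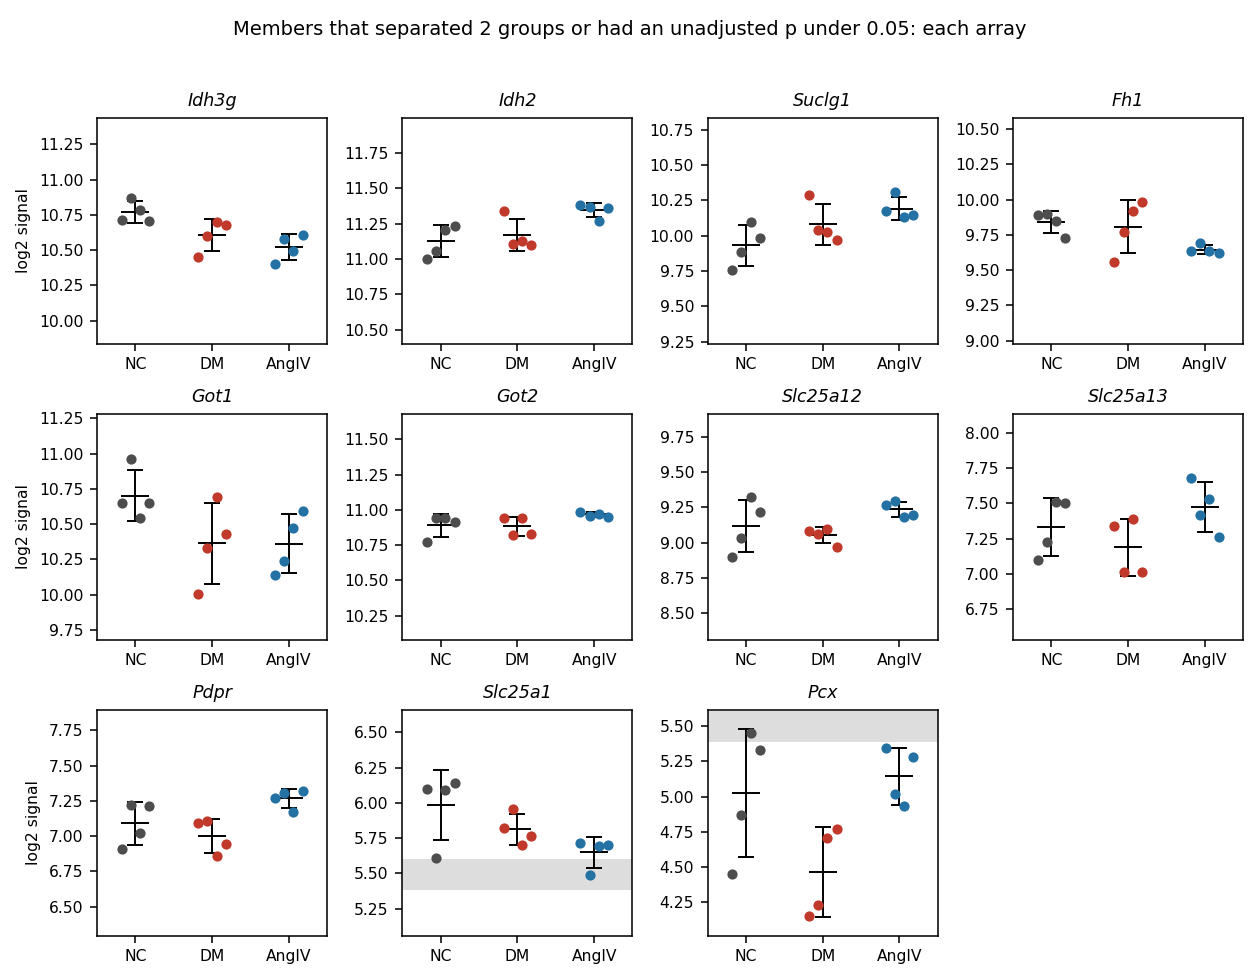
Log2 signal on each of the 12 arrays, by group (NC, DM, AngIV), for the members with an unadjusted limma p under 0.05 or with groups that did not overlap; points are arrays, long lines group means, bars the SD (n = 4) and grey bands the range over arrays of the negative controls' 95th percentile, 5.39 to 5.60. Idh3g is highest in NC, Idh2 and Suclg1 are highest in AngIV, and the values of Pcx lie near the negative control probe sets.

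The malate-aspartate shuttle has a cytosolic and a mitochondrial malate dehydrogenase, a cytosolic and a mitochondrial aspartate aminotransferase, and carriers that exchange malate for 2-oxoglutarate and aspartate for glutamate. Apart from Mdh2, described with the cycle, 6 of its genes were measured and none passed the limma test. All 6 had a negative log2 change in DM against NC, with a median of -0.12. In AngIV against DM, 5 of 6 were positive with a median of 0.08, and in AngIV against NC 3 of 6 with a median of 0.01. The 6 negative changes in DM against NC also held after both other scalings between arrays, and became 5 of 6 with the atrial marker mean as a covariate. They became 4 of 6 without NC replicate 3, and also without the 5 arrays with Myl7 above background. The 5 positive changes in AngIV against DM became 3 of 6 with the atrial covariate and 3 of 6 without those 5 arrays.

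Got1, the cytosolic aspartate aminotransferase gene, differed most in this group and was also among the most variable members. Its log2 signal was 10.65, 10.96, 10.54 and 10.65 on the NC arrays, 10.002, 10.33, 10.69 and 10.43 on the DM arrays and 10.14, 10.24, 10.47 and 10.60 on the AngIV arrays. The lowest DM array and the highest NC array were 0.96 apart, or 1.94-fold, yet DM replicate 3 and AngIV replicate 4 reached into the NC range. The log2 change was -0.34 ± 0.15 (SE) in both DM against NC (95% interval -0.65 to -0.02; limma unadjusted p = 0.0393, adjusted p = 0.434) and AngIV against NC (95% interval -0.66 to -0.02; limma unadjusted p = 0.037, adjusted p = 0.235). These comparisons share the NC arrays. Between AngIV and DM the difference was 0.00 after rounding, with a 95% interval of -0.32 to 0.31. In DM against NC the log2 change of Got1 was -0.21 without DM replicate 1, and -0.11 without the 5 arrays on which Myl7 was above the negative controls, where 1 DM array is left and is assumed to vary like the others.

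Got2, its mitochondrial counterpart, had a log2 signal of 10.77, 10.94, 10.94 and 10.91 on the NC arrays, 10.94, 10.82, 10.94 and 10.83 on the DM arrays and 10.99, 10.96, 10.97 and 10.95 on the AngIV arrays. The AngIV arrays lay above all others, but by a small margin: the log2 change was 0.08 ± 0.08 (SE) against DM and 0.08 ± 0.08 against NC, and the limma adjusted p was 0.784 and 0.687. Mdh1, the cytosolic malate dehydrogenase gene, and Slc25a11, the gene of the carrier of 2-oxoglutarate and malate, each had a log2 change of -0.12 in DM against NC (limma adjusted p = 0.67 and 0.693).

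The aspartate-glutamate carriers are encoded by Slc25a12 and Slc25a13. Slc25a12, the form typical of excitable tissue, had a log2 signal of 8.90, 9.04, 9.32 and 9.22 on the NC arrays, 9.09, 9.06, 9.10 and 8.97 on the DM arrays and 9.27, 9.30, 9.18 and 9.20 on the AngIV arrays. AngIV lay above DM on every array, and NC spanned both. The log2 change in AngIV against DM was 0.18 ± 0.10 (SE; limma adjusted p = 0.613). Slc25a13, the form typical of liver, had 7.10, 7.23, 7.51 and 7.50 on the NC arrays, 7.34, 7.01, 7.39 and 7.01 on the DM arrays and 7.68, 7.42, 7.53 and 7.27 on the AngIV arrays. Its groups overlapped, and the log2 change in AngIV against DM was 0.29 ± 0.13 (SE; 95% interval 0.00 to 0.57), with a limma unadjusted p of 0.0466 and an adjusted p of 0.557. Over the alternatives run, the log2 change of Slc25a13 ranged from 0.09 to 0.36, the lowest without the 5 arrays with Myl7 above the negative controls.

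The last genes move carbon between the cycle and the cytosol or refill the cycle. Slc25a1 encodes the carrier that exports citrate. The log2 signal of Slc25a1 was 6.10, 5.61, 6.09 and 6.14 on the NC arrays, 5.82, 5.96, 5.70 and 5.76 on the DM arrays and 5.71, 5.49, 5.70 and 5.70 on the AngIV arrays. It was below background on 1 array, AngIV replicate 2, and NC replicate 2 lay with the AngIV arrays. Between AngIV and NC its log2 change was -0.33 ± 0.12 (SE; 95% interval -0.59 to -0.07), with a limma unadjusted p of 0.0151 and an adjusted p of 0.158, the smallest adjusted p among the members. Over the alternatives run, the log2 change of Slc25a1 ranged from -0.46 (adjusted p = 0.0515), without NC replicate 2, to -0.22 (unadjusted p = 0.196), without the 5 arrays with Myl7 above background. With the atrial covariate it was -0.25 (unadjusted p = 0.0802).

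Pcx, which encodes pyruvate carboxylase, the enzyme that refills oxaloacetate from pyruvate, was below the background percentile on 11 of 12 arrays. Differences between its signals are therefore differences near background, and their size measures no fold in RNA. Its log2 signal was 4.46, 4.87, 5.45 and 5.33 on the NC arrays, 4.16, 4.23, 4.71 and 4.77 on the DM arrays and 5.35, 5.02, 4.93 and 5.28 on the AngIV arrays. All AngIV arrays lay above all DM arrays, and NC overlapped both. DM replicates 1 and 2 lay below every NC array. The difference of these signals was -0.56 ± 0.20 (SE) in DM against NC (limma unadjusted p = 0.0153, adjusted p = 0.338). In AngIV against DM it was 0.68 ± 0.20 (limma unadjusted p = 0.00472, adjusted p = 0.409) and in AngIV against NC 0.12 ± 0.20 (limma adjusted p = 0.811). With the atrial marker mean as a covariate, the difference of Pcx in AngIV against DM was 0.43 (unadjusted p = 0.0611).

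The malic enzymes turn malate into pyruvate. Me1, the cytosolic form that yields NADPH, had mean log2 signals of 7.88 ± 0.18 (NC), 8.06 ± 0.13 (DM) and 8.10 ± 0.17 (AngIV; SD, n = 4 each). Its log2 change was 0.18 ± 0.12 (SE) in DM against NC (limma adjusted p = 0.631) and 0.22 ± 0.12 in AngIV against NC (limma adjusted p = 0.335). Me3, a mitochondrial form, had log2 changes of -0.10, 0.01 and -0.10 in the 3 comparisons in turn. Me2 was below background on all 12 arrays, between 4.06 and 4.76, so no fold is given for it.

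**Figure D4:**
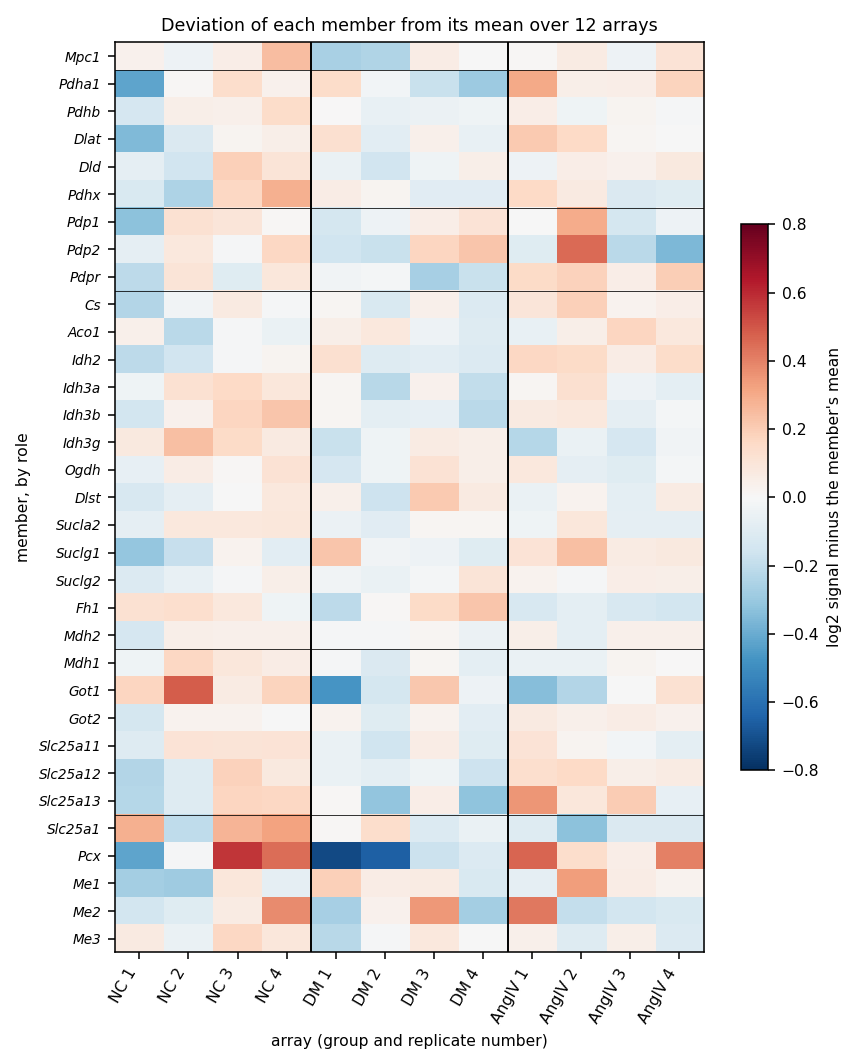
Each cell is the log2 signal of 1 gene on 1 array minus that gene's mean over all 12 arrays, with genes in order of role and arrays in order of group and replicate. NC replicate 1 holds the lowest value for 11 of 33 genes, Got1 and Pcx vary most and Mdh2 and Sucla2 least.

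Promoter windows from RefSeq (assembly GRCm38.p6, 250 bases before to 50 after each gene's start) were searched on both strands. The letters searched for are known as binding motifs of gene regulators. Of the 33 measured genes, 30 matched, with 38 promoters. The letters CCGGAAG, bound by ETS factors such as GABPA, were found in 4 of 38 promoters (10.5%, against 8.86% of 32851 promoters), of Mpc1, Idh3b, Idh3g and Dlst. The core AAGGTCA of the estrogen-related receptors was in 2 of 38 (5.26%, against 4.72%), of Ogdh and Got1, and the longer form TCAAGGTCA, which contains it, in 0 (against 0.423%). The letters GCGCATGC of NRF1 were at 1 site that 2 promoters of Ogdh share, which is 1 of 30 genes (3.33%, against 3.05% of all genes), and TCACNCCAC of SREBP were in 0 of 38 promoters (against 1.24%). These shares describe letters in these windows and not binding. The matches before the start of Idh3g and Got1, members with values per array above, and of the pyruvate carrier gene Mpc1 are shown with the motif in capitals, 5′ to 3′ on the strand of the gene. They lie at chrX:73786975-73787021 (minus strand) for Idh3g, chr19:43524824-43524855 (minus strand) for Got1 and chr17:8283542-8283588 (plus strand) for Mpc1.
Idh3g: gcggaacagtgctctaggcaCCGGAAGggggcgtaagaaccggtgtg
Got1: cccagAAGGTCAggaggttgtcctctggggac
Mpc1: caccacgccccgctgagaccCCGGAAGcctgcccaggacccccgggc

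Other genes of the same pathways were read from a second list, of which 23 genes were tested. None of the 23 was called by limma in any comparison. In DM against NC, 4 were higher at an unadjusted p under 0.05 (Pdk1, Pdk4, Slc25a22 and Slc25a42) and 1 lower (Adhfe1). In AngIV against DM, 3 were higher (Ogdhl, Slc25a10 and Gpt) and 0 lower, and in AngIV against NC, 5 were higher (Ogdhl, Idh1, Pdk1, Pdk2 and Slc25a42) and 0 lower. In both directions together, these were 21.7%, 13.0% and 21.7% of the 23 genes in turn, against 10.7%, 8.78% and 18.6% of all genes tested. The second list was also drawn up with earlier results of these arrays known, so these shares are a description and no test.

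The kinases that switch pyruvate dehydrogenase off were in this second list. Pdk4, the kinase gene induced by fatty acids and fasting, had a log2 signal of 8.03, 8.44, 8.36 and 7.32 on the NC arrays, 10.31, 9.73, 9.18 and 8.58 on the DM arrays and 7.34, 9.57, 8.98 and 8.67 on the AngIV arrays. All DM arrays lay above all NC arrays, and AngIV replicate 1 lay with the lowest NC array. Between DM and NC its log2 change was 1.41 ± 0.42 (SE; limma adjusted p = 0.233). Pdk1 had a log2 change of 0.26 ± 0.11 in DM against NC (limma adjusted p = 0.406) and Pdk2 one of 0.36 ± 0.12 in AngIV against NC (limma adjusted p = 0.112). The 5 subunit genes of the complex that these kinases act on had a median log2 change of -0.04 in DM against NC.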

How the data were processed

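The log2 signals are the authors' own, deposited in 1 table; the submitters' processing notes name RMA. RMA corrects background, quantile-normalizes the arrays and summarises each probe set. The range of the values shows the log2 scale. RMA's version, the chip description file and the build are not given in the sources used here. A difference in total mRNA is hidden by quantile normalization. Groups came from the sample titles. A disease state tag contradicts these titles, naming NC diabetic and AngIV negative control, and was left aside.

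Of 29129 probe sets, 6923 were controls; of the other 22206, 19572 had 1 symbol in the platform annotation, 2634 none and 0 several, and all 19572 matched the RefSeq table of GRCm38.p6. They named 19505 genes. The brightest probe set of a gene was kept (no member had more than 1), and genes were dropped if among the dimmest 30% (mean log2 signal under 3.40); 13653 were tested, and all 33 measured members passed. The 95th percentile of the negative controls was 5.39 to 5.60. The number of arrays limits the precision.

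Groups were compared by lmFit and eBayes of limma 3.58.1 (R 4.3.3; a mean per group over all 12 arrays, two-sided, Benjamini-Hochberg over 13653 genes, called at an adjusted p under 0.05), checked on simulated data. Members with an unadjusted p under 0.05 or with groups that did not overlap were given per array. The alternatives changed the filter, prior, arrays, weights, scaling, probe sets, replicate block and an atrial covariate. The members and lists were chosen with earlier results of these data known. Replicate numbers were checked for pairing: correlations of deviations of same-numbered arrays were -0.12 to 0.21 over 12 pairs, and 2 of 12 arrays correlated best with their own number, so the numbers were not taken to pair mice.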

Additional observations from a re-analysis of the deposited data

Results flagged for a closer look

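In 9 of 99 groups of 4 arrays (33 genes in 3 groups, 9.09%), 1 array stood apart from the other 3 by Dixon's criterion. Independent normal values meet this criterion in about 1 group in 20. The 33 genes share the same arrays, so the 99 groups are not independent, and the share over all genes was not computed. NC replicate 1 was the low array in 4 of the 9. There, Sucla2 had a log2 signal of 6.26 against 6.42 on the other 3 NC arrays, Mdh2 9.57 against 9.74 to 9.75, Got2 10.77 against 10.91 to 10.94 and Slc25a11 10.41 against 10.62. AngIV replicate 2 was low for Mdh2, at 9.63 against 9.75, and for Slc25a1, at 5.49 against 5.70 to 5.71. Slc25a1 was also low on NC replicate 2, at 5.61 against 6.09 to 6.14. Idh2 was high on DM replicate 1, at 11.34 against 11.10 to 11.13. Me2 was high on AngIV replicate 1, at 4.76 against 4.14 to 4.22, all below the negative control percentile.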

How the results depend on the processing

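The 10 differences of members with an unadjusted p under 0.05 kept their direction in all 190 values (19 alternatives each). The filters, prior, probe set mean, replicate block and fit of only the compared arrays leave these log2 changes as they are. Under those settings the direction could not change. Each difference kept such a p under 11 to 17 of 19. Smaller differences of other members changed sign under some alternatives. No member was called under any of 19 alternatives in DM against NC or in AngIV against DM, nor under 18 of 19 in AngIV against NC. The exception, an intensity trend with a robust prior, called 1 (Idh3g, limma adjusted p = 0.0492). That fit called 37 genes in place of 3 in DM against NC and 616 in place of 293 in AngIV against NC, and gave 5, 5 and 8 members at an unadjusted p under 0.05 in the 3 comparisons in place of 2, 3 and 5. Leaving out the dimmest 50% of genes called 20 and 492 genes in DM against NC and AngIV against NC, and fitting only the compared arrays 5 and 466. With array weights 1 member had such a p in DM against NC. With the atrial covariate, 5 genes were called in DM against NC, 0 and 2 members had such a p in AngIV against DM and AngIV against NC, and the members' median log2 change in AngIV against NC was -0.062 in place of 0.01. Without the 5 arrays with Myl7 above the negative controls, 0 and 102 genes were called in DM against NC and AngIV against NC, and 1 member had such a p in each comparison; the lone DM array is assumed to vary like the others. Leaving out 1 array at a time gave 3 to 30 genes called in DM against NC, 0 to 5 in AngIV against DM (5 without AngIV replicate 2) and 104 to 251 in AngIV against NC, and 0 to 3, 2 to 6 and 1 to 6 members with such a p. The cause of these differences was not tested. With the replicate block, 3, 0 and 218 genes and 0 members were called. With limma, 1461, 1199 and 2542 genes had an unadjusted p under 0.05.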
